A study of Rattus norvegicus with 16 samples.

Results

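The 9 genes described here are markers of peripheral nerve and of Schwann cells: Uchl1, Sncg, Nefl, Nefm, Prph, Pmp22, Th, Npy and Adcyap1. All probe sets whose platform gene symbol was 1 of these names were taken, which gave 15 of the 8799 probe sets on the array, where 4736 genes had a probe set of their own symbol. The genes were chosen by measured values, with the difference in Uchl1 and Adcyap1 signal between 28 and 3 months already known, and the question was whether the rise of Uchl1 goes with other nerve genes. Of the 15 probe sets, 11 probe sets of 7 genes passed the filter on low signal. The 4 probe sets below it were both of Nefl, the 1 of Nefm and 1 of the 3 of Adcyap1.

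The outer layer of the aorta carries sympathetic and sensory nerve fibres, whose cell bodies lie outside the vessel in ganglia, together with the Schwann cells that ensheath them. Sympathetic fibres make noradrenaline, for which tyrosine hydroxylase (Th) is the rate-limiting enzyme, and release neuropeptide Y (Npy) with it. Axons are filled with neurofilaments (Nefl, Nefm) and peripherin (Prph), while Uchl1 is a ubiquitin hydrolase that is abundant in neurons and is often used to stain nerve fibres.

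The series compared whole pieces of descending thoracic aorta of rats aged 3, 6, 15 and 28 months, with 4 rats and 4 Affymetrix RG_U34A arrays per age. Each of the 16 arrays carried the RNA of a different rat, and the labels give no treatment, and neither strain nor sex, for any age. The labels give 1 protocol for all rats. The array records carry a note on cRNA for 4 arrays (replicates 2 and 4 at 15 months, 3 and 4 at 28 months) and for none at 3 or 6 months, and its meaning is not stated. The labels do not state whether fat was stripped from the vessel.

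By the array records, the 4 arrays of each replicate number, 1 per age, shared a hybridisation day, an instrument station and a chip lot. Replicates 1 and 2 were recorded on day 1, at stations 1 and 2, and replicates 3 and 4 on day 2, at stations 2 and 1. Median signals lay between 223 and 268 on the 16 arrays. Fat cell transcripts differed between arrays: the summed signal of the 28 of 35 fat cell genes on the array ran from 188060 to 428411 in the 3 month rats, from 171458 to 539329 in those of 6 months, from 46814 to 433921 in those of 15 months and from 60329 to 161649 in the oldest rats. The ratio of 3′ to 5′ signal for beta-actin, a measure of RNA quality, reached 3.20 in replicate 4 of the 15 month rats and 3.82 in replicate 4 of the 28 month rats and lay between 1.24 and 1.77 on the other arrays. The same ratio ran from 1.07 to 2.10 for GAPDH and from 1.01 to 5.03 for hexokinase. For hexokinase it lay between 1.68 and 3.12 at 3 months and between 2.38 and 5.03 at 28 months. In whole pieces of tissue, fewer cells of a type and less RNA per cell cannot be told apart.

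The promoter regions of 3 of the genes are printed first. They run from 250 bases before to 50 bases after the start of the gene, come from RefSeq on build GRCr8, and are read 5′ to 3′ on the gene's own strand. Uchl1 is shown as the gene that was higher with age, and Adcyap1 as the gene with 1 probe set, M63006_at, that was lower. Sncg is shown as the gene that ran against Uchl1 between rats of 1 age, as 13.8% of all fitted probe sets also did. Capitals mark matches, on either strand, to a GC box (GGGCGG), a cyclic AMP response element (TGACGTCA) or a TATA box (TATAAA).
Uchl1: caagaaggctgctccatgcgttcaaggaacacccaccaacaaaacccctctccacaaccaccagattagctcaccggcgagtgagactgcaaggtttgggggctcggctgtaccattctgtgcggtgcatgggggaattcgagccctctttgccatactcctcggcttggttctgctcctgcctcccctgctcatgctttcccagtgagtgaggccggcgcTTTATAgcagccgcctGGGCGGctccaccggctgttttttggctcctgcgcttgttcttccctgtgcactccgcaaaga
Adcyap1: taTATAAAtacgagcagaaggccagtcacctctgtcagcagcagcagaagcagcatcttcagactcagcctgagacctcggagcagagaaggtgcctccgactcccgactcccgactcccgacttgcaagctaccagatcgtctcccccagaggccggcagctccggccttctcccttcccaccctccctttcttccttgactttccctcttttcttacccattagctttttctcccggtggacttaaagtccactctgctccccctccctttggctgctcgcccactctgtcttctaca
Sncg: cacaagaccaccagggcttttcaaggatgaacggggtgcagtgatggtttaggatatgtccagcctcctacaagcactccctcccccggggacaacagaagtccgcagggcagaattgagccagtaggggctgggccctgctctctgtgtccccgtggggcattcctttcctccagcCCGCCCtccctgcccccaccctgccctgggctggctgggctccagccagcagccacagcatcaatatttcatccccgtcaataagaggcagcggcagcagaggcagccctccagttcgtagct

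The Uchl1 region is chr14:41849368-41849667 on the minus strand, with a TATA box match on the opposite strand at position 222 and a GC box match at position 238, counted from the first printed base. The Adcyap1 region is chr9:120556424-120556723 on the minus strand and holds 1 TATA box match at position 3. The Sncg region is chr16:9711287-9711586 on the minus strand and holds 1 GC box match on the opposite strand at position 178. Of 33469 rat promoter regions of the same length, 33.1% held a GC box match, 14.2% a TATA box match and 1.83% a cyclic AMP response element. Of the 9 genes, 7 had a promoter region in the table, and the response element was present in the Th region alone. A match describes the letters and not a site in use.

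Uchl1 signal was higher in the older rats on all 3 of its probe sets. The brightest, rc_AA859882_s_at, read 457, 569.6, 335 and 465 in the 3 month rats, 343, 341, 505 and 773 in the 6 month rats, 593, 633, 1561 and 1535 in the 15 month rats and 1547, 1482, 1519 and 1904 in the 28 month rats. Every 28 month array lay above every 3 and 6 month array, and the 15 month arrays fell into a lower pair from day 1 and a higher pair from day 2.

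The second probe set, D10699_at, read 387, 470.1, 409 and 389.6 in the 3 month rats, 296, 413, 438 and 796 in the 6 month rats, 716, 898, 1519 and 1024 in the 15 month rats and 1529, 1683, 1257 and 1427 in the 28 month rats. The third, D10699_g_at, was designed on the same record and read 133, 135, 112 and 174 in the 3 month rats, 67.5, 198, 247 and 649.5 in the 6 month rats, 402, 559.9, 1034 and 723 in the 15 month rats and 1067, 1115, 1164 and 811 in the 28 month rats. By mean log2 value the 3 probe sets put the ages in 1 order, 3, 6, 15 and 28 months. On rc_AA859882_s_at the 6 month mean was only 0.04 (SE 0.33) above the 3 month mean. Its median signals ran the other way, 461 at 3 months and 424 at 6 months. Neighbours in that order overlapped in each of them (3 with 6, 6 with 15, and 15 with 28 months), while 15 against 3, 28 against 3 and 28 against 6 months did not overlap. Replicate 4 at 6 months was the highest 6 month array on each of the 3.

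**Figure D1:**
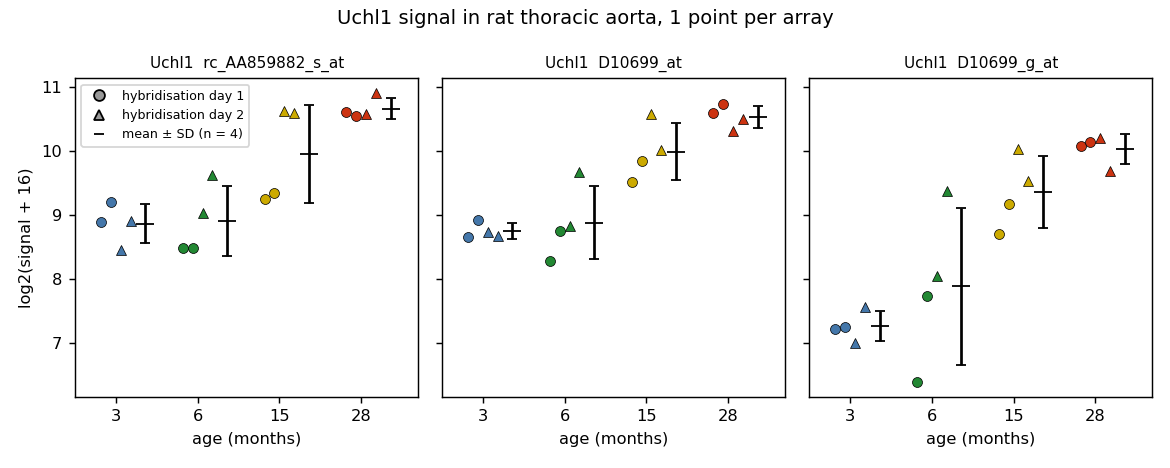
Uchl1 signal as log2(signal + 16) (vertical axis) at 4 ages in months (horizontal axis), with 1 panel per probe set, 1 point per array, the shape of the point giving the hybridisation day, and bars for mean ± SD (n = 4). The 28 month arrays lie above all 3 and 6 month arrays in each panel, and the 15 month arrays of rc_AA859882_s_at form a lower pair and a higher pair.

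The mean log2 value of rc_AA859882_s_at, from the youngest to the oldest group, was 8.86 ± 0.31, 8.90 ± 0.54, 9.95 ± 0.76 and 10.66 ± 0.16 (SD, n = 4 each). The log2 difference between 28 and 3 months was 1.80 (SE 0.33, 3.49-fold) on that probe set, 1.79 (SE 0.26, 3.46-fold) on D10699_at and 2.77 (SE 0.45, 6.84-fold) on D10699_g_at. These differences chose the gene and are given without a test. They were present on each day: on rc_AA859882_s_at the difference was 1.54 (SE 0.23) among the day 1 arrays and 2.06 (SE 0.30) among the day 2 arrays. The 3 month mean of D10699_g_at, 7.26, was under the filter limit of 7.31, which this probe set passed through the older groups.

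Adcyap1, which encodes the neuropeptide PACAP of sensory and autonomic fibres, moved the other way on 1 of its 3 probe sets. M63006_at read 529.9, 600.0, 379.7 and 332 in the 3 month rats, 357, 467, 453 and 198 in the 6 month rats, 399, 146, 30.2 and 161 in the 15 month rats and 84.0, 27.5, 66.3 and 49.0 in the 28 month rats. All 28 month arrays lay below all 3 and 6 month arrays, and the 15 month arrays spread over both. The log2 difference between 28 and 3 months was -2.74 (SE 0.51), again as a description of the contrast behind the choice. The mean log2 values of M63006_at, from the youngest to the oldest group, were 8.86, 8.52, 7.26 and 6.12. With the filter limit at 7.31, it passed through the 3 and 6 month arrays.

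X80290cds_s_at, from the coding sequence of the same gene, read 274, 379, 260.1 and 359.5 in the 3 month rats, against 322, 157, 244 and 227 in the 28 month rats, and the groups overlapped. Its difference was -0.42 (SE 0.24). The third probe set, rc_AI228407_s_at, was below the filter, with signals between 4.60 and 84.4 on the 16 arrays. Its difference, fitted without the filter, was 0.61 (SE 0.56). The probe sets of Adcyap1 therefore differed in the sign and in the size of their differences, and M63006_at alone separated the ages.

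Sncg encodes gamma-synuclein, a protein of peripheral neurons that is also abundant in mouse and human fat tissue. X86789_at read 2144, 875, 2972 and 1138 in the 3 month rats, 1871, 4650.0, 1413 and 2104 in the 6 month rats, 6534, 4581, 768 and 1107 in the 15 month rats and 2914, 2965, 2768 and 1828 in the 28 month rats. The 4 ages overlapped in every pair, and the 15 month arrays held both the highest and the lowest signal of all 16. The log2 difference between 28 and 3 months was 0.69 (SE 0.59). With a score of fat cell transcripts (the fat score) added to the fit it was 1.92 (SE 0.40), again as a description.

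Among the sympathetic markers, Npy varied several-fold between rats of 1 age. M15880_at read 1093, 1492, 3415 and 629.9 in the 3 month rats, 335, 548, 1455 and 549 in the 6 month rats, 3727, 1367, 2179.6 and 1617 in the 15 month rats and 792, 582, 847 and 3811 in the 28 month rats. All pairs of ages overlapped, and the single highest array was replicate 4 at 28 months. The difference between 28 and 3 months was -0.30 (SE 0.60).

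The Th probe set M10244_at read 428, 102, 291 and 189 in the 3 month rats, 300.1, 220.4, 192 and 195 in the 6 month rats, 290.0, 70.3, 294 and 357 in the 15 month rats and 373, 49.1, 430.4 and 338 in the 28 month rats. Replicate 2 was far below the other arrays at 15 and 28 months, and the lowest at 3 months. The 4 mean log2 values lay between 7.88 and 7.97, and the difference between 28 and 3 months was 0.07 (SE 0.59).

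The neuronal filament genes lay near or below the filter. Prph, at AF031878_at, read 163, 123, 167 and 89.2 in the 3 month rats, 156, 180.0, 129 and 184 in the 6 month rats, 222, 146, 179.7 and 203 in the 15 month rats and 121, 164, 120.4 and 197 in the 28 month rats, and all ages overlapped. It stood just inside the filter, at a mean log2 value of 7.42 against the limit of 7.31, and the brighter Nefl probe set, AF031880_at, was the nearest member outside it at 6.85. That probe set ran from 27.6 to 234, the other Nefl probe set, M25638_s_at, from 14.5 to 116, and the Nefm probe set, Z12152_at, from 4.29 to 85.6. No pair of ages separated on any of them, and their differences between 28 and 3 months, fitted without the filter, were -0.74 (SE 0.64), 0.12 (SE 0.37) and 0.14 (SE 0.51).

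Pmp22 encodes a protein of compact myelin in Schwann cells and is also expressed by fibroblasts and other cells outside the nerve. The brighter probe set, S55427_s_at, read 6285, 6126, 5579 and 8417 in the 3 month rats, 4779, 4518, 5495 and 6077 in the 6 month rats, 5163, 5188, 6941 and 6534 in the 15 month rats and 6196, 5975, 6883 and 7026 in the 28 month rats. All pairs of ages overlapped, and the spread was narrow. The dimmer probe set, rc_AA924909_at, ran from 151 to 397. The differences between 28 and 3 months were -0.00 (SE 0.17) and 0.12 (SE 0.27).

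**Figure D2:**
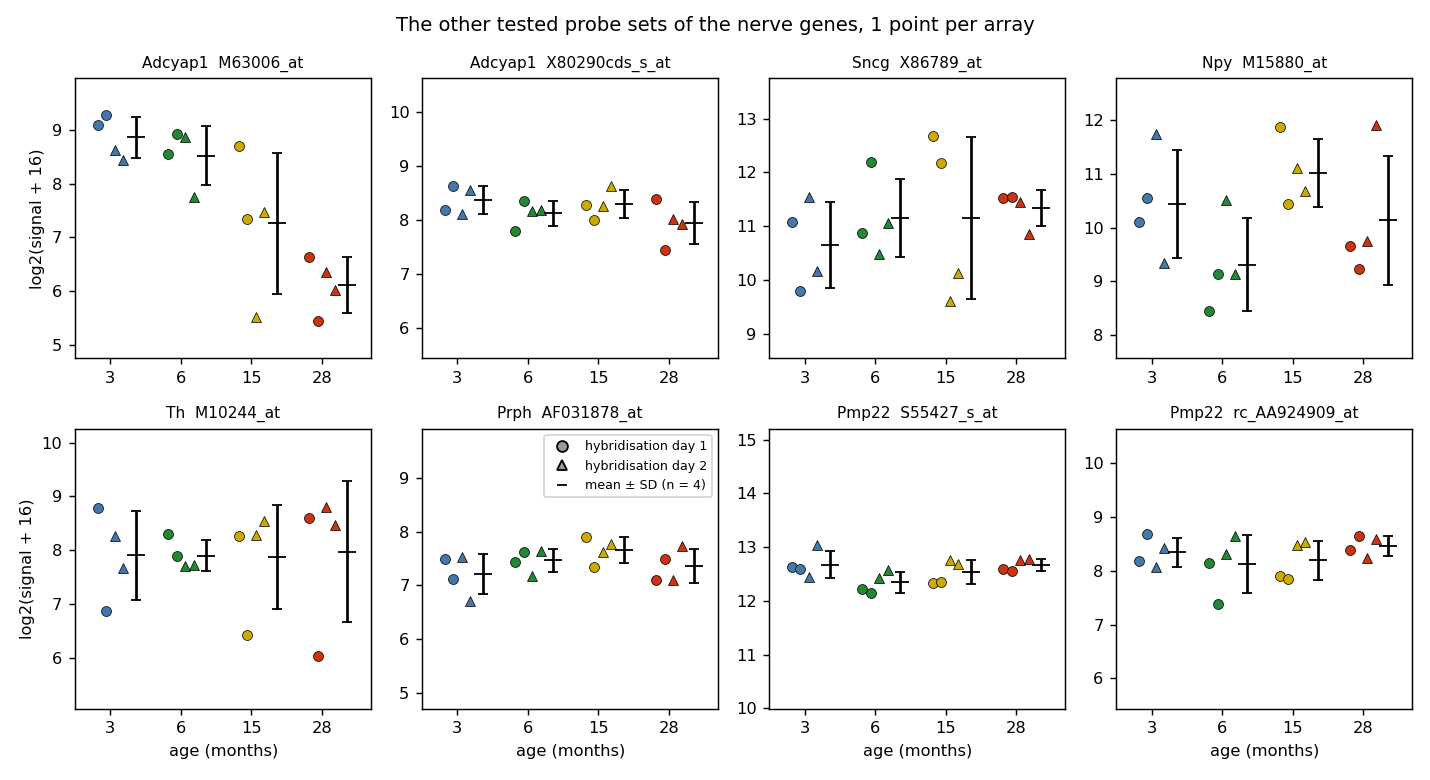
The 8 other tested probe sets as log2(signal + 16) (vertical axis) at 4 ages in months (horizontal axis), 1 point per array, with the shape for the hybridisation day and bars for mean ± SD (n = 4). Adcyap1 M63006_at falls with age, and the arrays of the ages overlap in the other panels.

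Between 28 and 3 months, 1.05% of all 5250 probe sets passed an adjusted p of 0.05 upward and 0.229% downward (limma, Benjamini-Hochberg). Members are not counted against this threshold, because Uchl1 and Adcyap1 were chosen on this contrast. By the arrays themselves, 3 of the 11 tested member probe sets, all of Uchl1, did not overlap upward, against 10.4% of all probe sets. Downward, 1 did not overlap, Adcyap1 M63006_at, against 7.30%. These members were chosen on that contrast, so nothing is read from these shares. Without the 4 arrays that carry the cRNA note, 0 of all probe sets passed against 67 with them, while the Uchl1 differences were 1.72 (SE 0.40), 1.92 (SE 0.36) and 2.86 (SE 0.63) and that of Adcyap1 M63006_at was -2.81 (SE 0.71). The other 7 tested probe sets were neither past the threshold nor separated, and no probe set of Sncg, Npy, Th, Prph or Pmp22 separated any pair of ages.

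The comparison of 15 with 6 months used arrays outside the contrast behind the choice. None of the 11 member probe sets passed, against 1 of 5250 probe sets in all (0.0190%), and 5 of the 11 had an unadjusted p under 0.05 against 393 of all 5250. These 5 were all the Uchl1 probe sets, Adcyap1 M63006_at and Npy. Uchl1 and Adcyap1 were chosen with their change with age known, so the count is not read as a result about nerve genes. None of the 11 separated the 2 ages in either direction, where 1.70% of all probe sets did upward and 0.762% downward. The median difference was 0.19 over the 11 and 0.08 over all probe sets.

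Uchl1 differed by 1.05 (95% interval 0.35 to 1.75, limma adjusted p = 0.605) on rc_AA859882_s_at, by 1.11 (0.55 to 1.67, limma adjusted p = 0.587) on D10699_at and by 1.48 (0.53 to 2.43, limma adjusted p = 0.605) on D10699_g_at. Without replicate 4 at 6 months, its highest array, D10699_at differed by 1.37 and passed, with a limma adjusted p of 0.0448. Other settings gave smaller values: D10699_g_at differed by 0.98 without replicate 1 at 6 months, and with a score of fat cell transcripts as a covariate the 3 differences were 0.48, 0.80 and 1.00, none past the threshold. Npy differed by 1.70 (0.44 to 2.97, limma adjusted p = 0.605). Of its 16 pairs of a 15 and a 6 month array, 15 were higher at 15 months. The Npy difference was 2.35 (SE 0.44) on day 1 alone and 1.05 (SE 0.90) on day 2 alone. Adcyap1 M63006_at differed by -1.26 (-2.35 to -0.17, limma adjusted p = 0.605). It differed by -0.68 without replicate 3 at 15 months and by -1.74 without replicate 1 at 15 months. The values were -0.71 on day 1 alone, -1.81 on day 2 alone and -0.62 with the fat score. This probe set passed the filter through the younger groups, where it was high. The intervals of Sncg (-1.26 to 1.25) and Th (-1.28 to 1.23) were wide enough to hold a doubling of signal as well as a halving.

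Whether the other nerve genes go with Uchl1 was then asked between rats of the same age. For each of 5247 probe sets, limma fitted 1 mean per age and a slope on the log2 value of rc_AA859882_s_at, so that differences between ages were taken out. The slope is the change in log2 signal per log2 unit of Uchl1. Such slopes were common on these arrays: 20.0% of the 5247 probe sets rose with Uchl1 and 13.8% fell, at an adjusted p of 0.05.

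Of the 8 member probe sets outside Uchl1, 2 rose, both of Pmp22, 1 fell, Sncg, and 5 did not pass. Pmp22 had slopes of 0.60 (SE 0.16, limma adjusted p = 0.00979) on rc_AA924909_at and 0.31 (SE 0.10, limma adjusted p = 0.0303) on S55427_s_at. Sncg had a slope of -1.57 (SE 0.28, limma adjusted p = 6.17e-04). Rats with more signal on the Uchl1 probe set used for the slope than others of their age had less Sncg. The shares of members that rose, 2 of 8, and that fell, 1 of 8, are both close to the background shares of 20.0% and 13.8%. The 2 that rose are probe sets of 1 gene, so neither count is a result about the members.

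The sympathetic, axonal and peptide markers did not pass. Npy had a slope of 0.03 (95% interval -1.01 to 1.06, limma adjusted p = 0.973), Th of 0.26 (-0.77 to 1.29, limma adjusted p = 0.715) and Prph of 0.02 (-0.48 to 0.52, limma adjusted p = 0.957). Adcyap1 had a slope of -0.86 (-1.63 to -0.08, limma adjusted p = 0.0821) on M63006_at and 0.23 (-0.17 to 0.63, limma adjusted p = 0.383) on X80290cds_s_at. Among the dim probe sets, fitted without the filter, Nefl AF031880_at had a slope of 1.02 (limma adjusted p = 0.154) and Nefm of 0.56 (limma adjusted p = 0.386). A slope of 1 lay inside the intervals of Npy and Th, so these data do not show that those genes are unrelated to Uchl1.

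**Figure D3:**
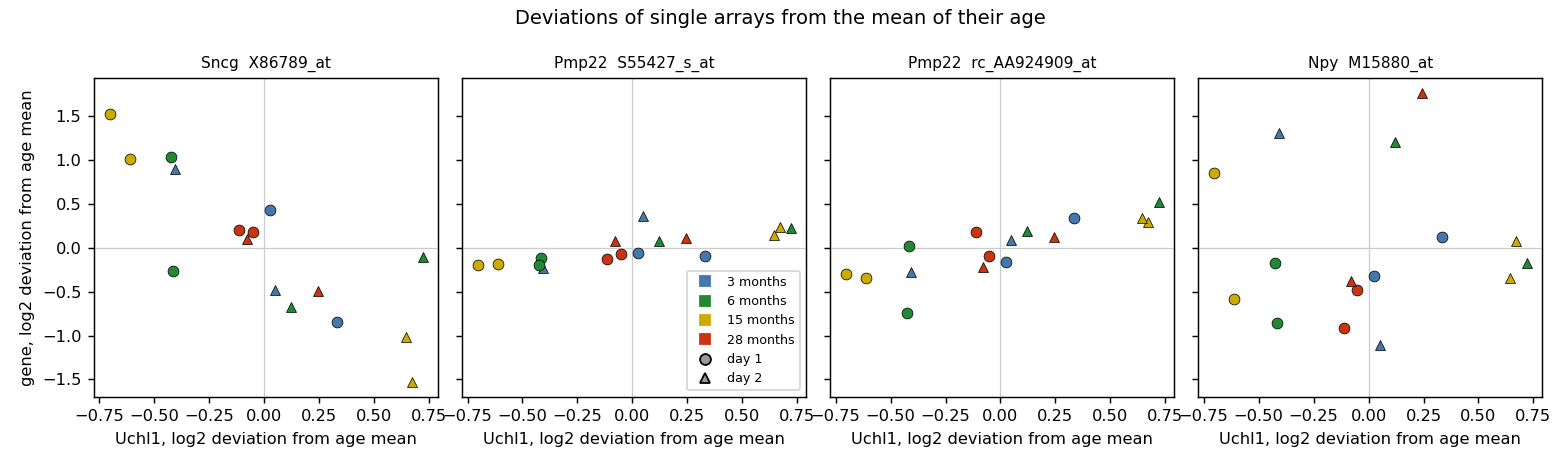
Deviation of each array from the mean of its age, in log2 units, for Uchl1 rc_AA859882_s_at (horizontal axis) and for Sncg, both Pmp22 probe sets and Npy (vertical axis), with colour for age and shape for the hybridisation day. Sncg falls and Pmp22 rises along the axis, with the 15 month arrays at or near both ends, and Npy shows no such order.

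The calls rested in part on the 15 month arrays, which lay at or near both ends of the Uchl1 range within ages, the low pair on day 1 and the high pair on day 2. Without the 15 month arrays no slope passed for any probe set: Sncg had -1.05 (SE 0.43, limma adjusted p = 0.141) and Pmp22 0.77 (limma adjusted p = 0.0970) and 0.34 (limma adjusted p = 0.251). With the replicate number as a block, Sncg kept its call at -1.64 (SE 0.39, limma adjusted p = 0.0238), while the Pmp22 slopes were 0.61 (limma adjusted p = 0.106) and 0.18 (limma adjusted p = 0.398).

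Within single days, which leave few residual degrees of freedom, no member passed. Sncg had -4.24 (SE 1.49) on day 1 and -0.73 (SE 0.79) on day 2, and Pmp22 rc_AA924909_at had 1.32 (SE 1.69) and 0.70 (SE 0.46). Pmp22 S55427_s_at had -0.06 (SE 0.69) on day 1 and 0.55 (SE 0.34) on day 2, so its sign was not the same on both days. With the mean of all 3 Uchl1 probe sets in place of the brightest, no member passed, with limma adjusted p-values of 0.0668 for Sncg and 0.0641 and 0.0863 for Pmp22.

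**Figure D4:**
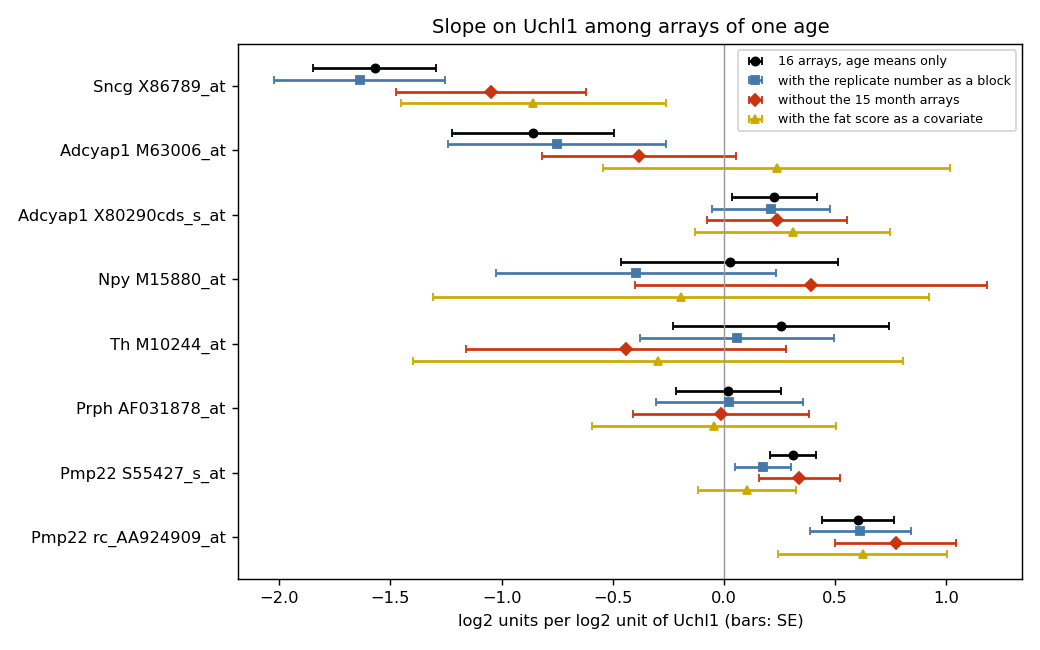
Slope on Uchl1 in log2 units per log2 unit (horizontal axis, bars for SE) of 8 probe sets (vertical axis) in 4 fits, marked by colour. Sncg lies below 0 and both Pmp22 probe sets above 0 in all 4 fits, and Npy, Th and Prph lie within 1 SE of 0 with all 16 arrays and age means only.

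Fat cell transcripts moved with these slopes, and their part in them was not tested. The fat score of an array was the mean log2 value of the 28 fat cell genes that passed the filter. For the 3 month rats the scores were 12.96, 12.59, 12.75 and 11.81, for the 6 month rats 13.05, 13.25, 12.60 and 11.72, for the 15 month rats 12.99, 12.67, 10.11 and 9.95 and for the 28 month rats 11.18, 11.17, 11.55 and 10.11. The 28 month arrays all lay below the 3 and 6 month arrays, and the 15 month arrays of day 2 were the lowest of their age.

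The slope on the fat score among arrays of 1 age was fitted in the same way over 5206 probe sets, of which 14.3% rose with the score and 21.7% fell. Of the 11 member probe sets, 2 rose and 4 fell. Sncg rose by 0.81 log2 units per unit of the score (SE 0.14, limma adjusted p = 3.20e-04), and Adcyap1 M63006_at by 0.52 (SE 0.17, limma adjusted p = 0.0281). Uchl1 fell by 0.46 on rc_AA859882_s_at (SE 0.08, limma adjusted p = 1.65e-04) and by 0.25 on D10699_at (limma adjusted p = 0.0374), and Pmp22 fell by 0.17 (limma adjusted p = 0.0152) and 0.28 (limma adjusted p = 0.0282). D10699_g_at of Uchl1, Npy, Th, Prph and X80290cds_s_at of Adcyap1 did not pass.

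With the replicate number as a block, Sncg (1.11, limma adjusted p = 0.00631) and Uchl1 rc_AA859882_s_at (-0.53, limma adjusted p = 0.0235) remained past the threshold and the other members did not. Without the 15 month arrays no member passed. When Uchl1 and the fat score entered 1 fit, no slope on Uchl1 passed for any probe set, and Sncg had -0.86 (SE 0.60, limma adjusted p = 0.815).

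Adding the fat score to the fit as a covariate, the 28 against 3 month difference of Uchl1 was 1.10 (SE 0.21) on rc_AA859882_s_at, 1.41 (SE 0.25) on D10699_at and 2.18 (SE 0.46) on D10699_g_at, against 1.80, 1.79 and 2.77 without it. Adcyap1 M63006_at differed by -1.94 (SE 0.49) with the covariate. The Sncg difference, given with its signals above, was larger with the covariate than without it.

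**Figure D5:**
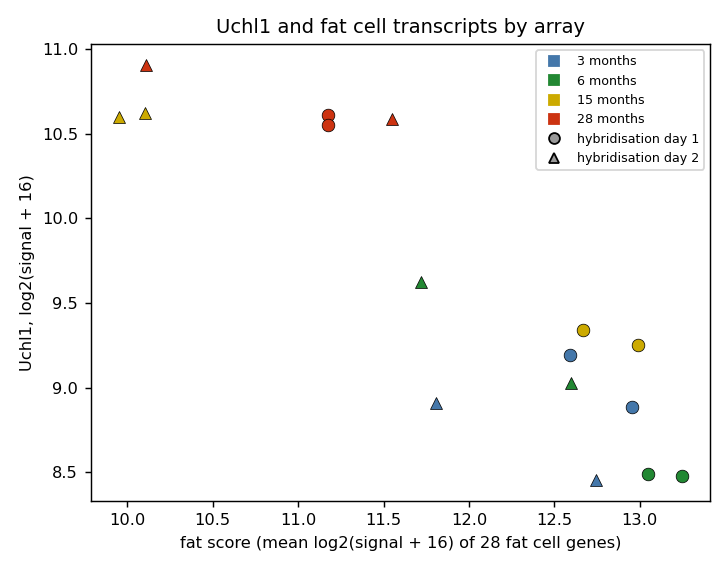
Uchl1 rc_AA859882_s_at as log2(signal + 16) (vertical axis) against the fat score, the mean log2 value of 28 fat cell genes (horizontal axis), 1 point per array with colour for age and shape for the hybridisation day. The 28 month arrays lie at the upper left with the day 2 pair of the 15 month arrays, and the day 1 pair lies at the lower right.

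Smooth muscle markers moved with Uchl1 as well, with 9 of 11 tested genes rising on the Uchl1 slope and 0 falling, against 26 of 28 fat cell genes falling. The shares over all probe sets were 20.0% rising and 13.8% falling. The summed signal of the 11 smooth muscle genes ran from 185713 to 314927 at 3 months and from 277859 to 345911 at 28 months. Of the fibroblast genes 6 of 11 rose and 1 fell, of the endothelial genes 0 of 8 rose and 2 fell, of the macrophage genes 0 of 8 rose and 1 fell, and of the striated muscle genes 2 of 5 rose and 0 fell. The part of these lists in the Uchl1 values was not tested.

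The wider set of nerve genes was taken from 6 lists with 109 genes beside the members, drawn up with earlier results of these data known. Of these, 87 were on the array under their symbol and 43 passed the filter on their brightest probe set. None of the 43 passed between 28 and 3 months or between 15 and 6 months (smallest limma adjusted p = 0.0623 and 0.605), and 9 and 5 of them had an unadjusted p under 0.05, where 1178 and 393 of all 5250 probe sets did. The median difference between 28 and 3 months was 0.11 over the 43 and 0.06 over all probe sets. The other 44 were below the filter. Among them Chgb (chromogranin B) ran from 3.62 to 24.5 and Ddc (the enzyme after Th in catecholamine synthesis) from 11.3 to 44.7. Dbh (which makes noradrenaline) ran from 9.26 to 138 and the Schwann cell factor Sox10 from 5.26 to 117. Chgb, Ddc and Sox10 were picked after their values were seen. Other markers of the same lists passed the filter, such as Slc6a2 (106 to 441), Snap25 (46.4 to 383), Gap43 (36.1 to 307) and Erbb3 (97.6 to 359).

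On the slope on Uchl1, 9 of the 43 rose and 3 fell, with a median slope of 0.29 against 0.16 over all probe sets. With 20.0% of all probe sets rising and 13.8% falling, the share that rose was near the background and the share that fell was below it, so neither is a result about nerve genes, and the counts of the single lists below are read against the same shares. The lists overlap in Ngfr, which is counted once. With the replicate block 2 of these 12 genes passed (Ntf3 and S100b), and without the 15 month arrays, within either day or with the fat score as a covariate none did.

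Of the neuronal cytoskeleton list, 5 genes were tested and 1 passed: Mapt, the microtubule protein tau, fell with a slope of -0.83 (SE 0.19, limma adjusted p = 0.00282). Its signal was 2009.5, 1242, 491 and 529 at 15 months, the highest and the lowest values of the 16 arrays. Gap43, a protein of growing axons, had a slope of 0.78 (limma adjusted p = 0.0655).

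Of the list for synaptic vesicles and release, 4 of 11 rose and 0 fell, against 20.0% and 13.8% of all probe sets: Vamp2 and Stx1a, which fuse vesicles with the membrane, Cplx2, which regulates that fusion, and Cpe, which processes peptide hormones. Their slopes were 0.70, 0.71, 1.02 and 0.81 (limma adjusted p = 0.00314, 0.0375, 0.00998 and 8.50e-04). Cpe read 4958, 5736, 5792 and 8240.1 in the 3 month rats and 12647, 16078, 13659 and 17496 in the 28 month rats, with a difference of 1.29 (SE 0.32, limma adjusted p = 0.0623). Snap25, which pairs with both Vamp2 and Stx1a, had a slope of 0.21 and a difference of -0.78 (SE 0.39, limma adjusted p = 0.242). Of the 43 genes, 3 did not overlap upward between 28 and 3 months, Cpe, Mal and Sv2a, and 2 downward, Snap25 and Mapt, against 10.4% and 7.30% of all probe sets. Mal and Sv2a are named for this after their values were seen.

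In the noradrenergic list 1 of 3 tested genes rose, Maoa, which breaks down noradrenaline in many cell types (slope 0.51, limma adjusted p = 0.00847), and in the cholinergic and sensory list 0 of 4 passed. Of the 9 tested nerve growth factors and receptors 3 rose: the neurotrophin Ntf3 (0.90, limma adjusted p = 7.20e-04), the GDNF receptor Gfra1 (0.85, limma adjusted p = 0.00313) and the neurotrophin receptor Ngfr (0.37, limma adjusted p = 0.0244). Nrp1, a receptor for semaphorins and vascular growth factor, fell (-0.61, limma adjusted p = 0.0366). The Ngfr probe set, U25650_f_at, is of a type whose probes can be shared by related transcripts.

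Of the Schwann cell and myelin list, 2 of 12 rose and 1 fell, both below the shares over all probe sets. The myelin enzyme Cnp rose (0.60, limma adjusted p = 0.0428), as did Ngfr, and S100b fell with a slope of -1.68 (SE 0.27, limma adjusted p = 3.34e-04). S100b, a calcium-binding protein of Schwann cells that fat cells also make, read 7589, 5280.2, 509.8 and 1228 at 15 months. These 4 arrays stand in the same order of pairs as for Sncg, high on day 1 and low on day 2. Its difference between 28 and 3 months was -0.20 (SE 0.61).

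The 5 genes outside the members whose log2 values over the 16 arrays were most like Uchl1 stood on none of the nerve lists. By Pearson correlation with rc_AA859882_s_at they were Bgn, a proteoglycan of the vessel wall (r = 0.973), Spint2 (0.957), Gyg1 (0.955), P2rx4 (0.955) and Acvrl1 (0.955). Over the same arrays the members outside Uchl1 lay between -0.88 (Adcyap1 M63006_at) and 0.57 (Pmp22 rc_AA924909_at), with Npy at 0.19, Prph at 0.14, Th at 0.09 and Sncg at -0.20. With the age means taken off, the highest were Cav3 (0.975), Arhgap10 (0.942), S100a1 (0.938), Dctn1 (0.935) and Cltc (0.925), against 0.82 and 0.76 for Pmp22 and -0.83 for Sncg. Uchl1 D10699_at and D10699_g_at stood at 0.77 and 0.70 by that measure, and at 0.95 and 0.91 with the age means left in. Within ages, the slopes therefore describe rc_AA859882_s_at rather than every Uchl1 probe set. These correlations describe 16 arrays that share ages, days and fat content, and have no test.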

How the data were processed

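The authors deposited 1 table of intensity values, 1 linear signal per probe set and array, made with MAS5 per the submitters' processing notes, whose version and settings are unknown. The signals were already scaled: trimmed means lay between 1001.7 and 1002.0. Hybridisation day and RNA ratios come from the deposited array records. Gene names come from the platform annotation: 7006 probe sets had 1 symbol, 308 several, 1426 none, and all 15 member probe sets matched RefSeq identifiers.

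Values were analysed as log2(signal + 16), which understates changes of dim probe sets. The 59 controls and probe sets with a mean under the 40th percentile were left out, leaving 5250. limma 3.58.1 in R 4.3.3 (lmFit, eBayes with trend) fitted all 16 arrays with 1 mean per age (residual degrees of freedom: 12). P-values were adjusted by Benjamini-Hochberg over all probe sets fitted, the threshold was 0.05 and tests were 2-sided. Slope fits left out the probe sets of the gene or score on the axis. The code was tested on simulated data. Fits were repeated with other pseudocounts, filters, scalings, blocks, covariates and without single arrays. Precision is limited by the number of arrays.

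The members and lists were chosen with earlier results of these data known. All member probe sets are named. Other nerve genes were named as up to 4 per list by the smallest p, plus S100b, Dbh, Gap43, Snap25 and Ngfr; some items of that rule are not reported here. The 5 genes most like Uchl1 were named before and after the age means were taken off. Chgb, Ddc, Sox10, Mal and Sv2a were named after their values were seen.

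The array records give the 4 arrays of a replicate number 1 hybridisation day, station and chip lot, and the labels do not say what the number means. It was used as a block for arrays handled together, not for rats. Deviations from the age means of same-numbered arrays correlated with a median of 0.171 over 24 pairs (-0.314 to 0.628, 13 above 0.1), against -0.034 for other pairs.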

Additional observations from a re-analysis of the deposited data

Results flagged for a closer look

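In 5 of 60 sets of 4 arrays of 1 age and probe set, 1 array stood apart from the other 3 by more than Dixon's 95% critical value for the gap over the range. Chance flags about 1 in 20 such sets.

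Th signal on replicate 2 was 70.3 among the 15 month rats, whose other 3 arrays read 290.0 to 356.5, and 49.1 among the 28 month rats, whose other 3 read 338 to 430.4. The same replicate was also the lowest at 3 months, at 102, but not at 6 months, at 220.4. Uchl1 rc_AA859882_s_at on replicate 4 at 28 months was the highest of its age, at 1904 against 1482 to 1547, and Sncg on the same array was the lowest, at 1828 against 2768 to 2965. That array had the lowest fat score at 28 months, 10.11, and a beta-actin 3′ to 5′ ratio of 3.82. Their part in these 2 values was not tested. Nefl M25638_s_at, a dim probe set, read 14.5 in replicate 3 of the 6 month rats, and the other 3 arrays read 46.6 to 54.6.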

How the results depend on the processing

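Between 28 and 3 months, 67 of 5250 probe sets passed. Uchl1 and Adcyap1 were chosen on this contrast, so counts of members are not given for it. With the replicate block 642 passed, with a day term 465, without the 2 arrays of high beta-actin ratio 43, on day 1 alone 699, on day 2 alone 0, with the fat score 40, on the 8 arrays of both ages alone 535, without the cRNA note arrays 0, without the 15 month arrays 376, and with fat score and replicate block together 5. Leaving out 1 array gave 9 to 134 probe sets. Between 15 and 6 months 1 probe set passed, and 0 did without the filter, with quantile normalization, without the high beta-actin arrays, on either day, on both ages alone, without the note arrays and with fat score and block; leaving out 1 array gave 0 to 4 probe sets and 0 to 1 member.

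Of the slopes on Uchl1, 1772 passed: 492 with the replicate block, 926 with a day term, 40 on day 1, and 0 on day 2, with the fat score with or without the block, and without the 15 month arrays. The 3 members past the threshold became 1 with the block and without the note arrays and 0 on either day, with the fat score with or without the block, with the mean of all Uchl1 probe sets and without the 15 month arrays; leaving out 1 array gave 1319 to 1875 and 2 to 3. Of the slopes on the fat score, 1872 passed, against 505 with the block, 924 with a day term, 0 on day 1, 64 on day 2 and 943 without the 15 month arrays; the 6 members became 2, 2, 0, 0 and 0, and 3 to 7 (1479 to 1908 probe sets) on leaving out 1 array, with 3 without replicate 4 at 6 months. Signs turned for the Uchl1 slope of Nrp1 (0.63 on day 1, 0.72 with the fat score, 0.000695 without the 15 month arrays, 0.83 with fat score and block), Mapt (0.17 with fat score and block), Pmp22 S55427_s_at (-0.0626 on day 1) and Ngfr (-0.0919 on day 1), and for the fat slope of Nrp1 (-0.12) and Vamp2 (0.21) on day 1. Sign changes of values past the threshold in neither fit are not counted. The fits without the note arrays (replicates 2 and 4 at 15 months, 3 and 4 at 28 months), without the 15 month arrays and with score and block together were chosen after seeing the data. The cause of these changes was not tested.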
